A study of Homo sapiens with 24 samples.

Results

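The nuclear response of control cells to a block of protein synthesis was read from 6 of the 24 libraries of the series, chosen by their labels. They are 3 nuclear libraries of sgAAVS1 cells treated with cycloheximide (CHX, at 25 µg/mL) and 3 of sgAAVS1 cells treated with the vehicle DMSO, both for 4 h. RKO is a human colon carcinoma line. All 6 libraries came from RKO-dox-Cas9 cells, a line descended from a single cell in which doxycycline switches on the Cas9 nuclease. All cells had received doxycycline at 100 ng/mL for 5 days, so the DMSO nuclei carry the guide, the nuclease and the inducer as well. The sgAAVS1 guide cuts a safe-harbour locus and serves as the control guide of the study, whose other guide targets the nuclear protein ERH. Fractions were separated by gentle lysis in a buffer with NP-40 and spinning, and libraries were made from polyadenylated RNA. The study included CHX to ask whether nonsense-mediated decay acts on mRNAs that change without ERH. The comparison described here is the effect of CHX itself in the nucleus of control cells.

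Cycloheximide binds the large subunit of cytosolic ribosomes and stops elongation. Proteins of short half-life, among them repressors, decay factors and several cyclins, then run down, while mRNAs whose decay depends on translation can build up. Genes that switch on rapidly without new protein synthesis, the immediate early genes, are known for rising further when translation is blocked. Nonsense-mediated decay (NMD) removes spliced RNAs whose reading frame ends early, and it needs translation, which takes place outside the nucleus. A nuclear measurement reports on transcription, processing, export and nuclear decay more than on cytoplasmic decay. Some polyadenylated RNAs keep particular introns and stay in the nucleus, and these are called detained introns.

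The deposited counts were summed per gene and are given as CPM, the usual scale that sets every library to one fixed total, here after TMM scaling. Total counts ran between 27849344 and 31138239 in the CHX nuclei and between 30940028 and 34367336 in the DMSO nuclei. Mitochondrial mRNA took 0.338 to 0.430% of counts with CHX and 0.412 to 0.525% with DMSO. There were 38.0 to 39.2 exon-intron boundary reads per 100 spliced reads with CHX and 38.8 to 40.6 with DMSO. Of 10 colon epithelial markers 5 passed the filter on low counts, led by the keratins KRT8 and KRT18, whereas EPCAM lay between 0.621 and 2.18 CPM in all 6 libraries. The summed level of the markers was 263 to 291 CPM with CHX and 115 to 124 CPM with DMSO. Summed fibroblast markers (3 of 9 tested) were at 3.76 to 4.16 CPM with CHX and 1.02 to 1.76 CPM with DMSO. Summed leukocyte markers (3 of 8 tested) were at 160 to 200 CPM with CHX and 59.6 to 95.1 CPM with DMSO, nearly all of it CD68. The defining leukocyte marker PTPRC did not pass the filter. The part of these markers in the results was not tested. The 3 libraries of a group are labelled as biological replicates, so p-values rest on how far such libraries spread, which for genes was estimated over all nuclear libraries of the series. In bulk samples fewer cells expressing a gene and less RNA per cell cannot be told apart.

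CHX changed the nuclear level of 4375 of 17330 genes tested (25.2%). Calls rest on edgeR's quasi-likelihood test with Benjamini-Hochberg adjustment and needed an adjusted p not above 0.05 and a log2 fold change of 1 or more in size. Every adjusted p for a gene, intron or transcript is from this test. Values after ± are SE of the log2 fold change throughout. Of the called genes 2499 were higher with CHX (14.4% of those tested) and 1876 were lower (10.8%). The median log2 fold change of all tested genes was 0.01. In 11723 of the 17330 genes the CHX and DMSO libraries did not overlap, and in 8924 of the 11118 with a mean of at least 5 CPM. Groups that do not overlap are thus the common case and do not set a gene apart. By class, of 3369 long non-coding RNAs 803 were higher and 262 lower (median 0.44). Of 12824 protein-coding genes 1502 were higher and 1533 lower (median -0.06). The split also differed by level. Of 3535 genes of any class with a mean under 1 CPM 18.2% were higher and 4.75% lower (median 0.46). From 5 CPM it was 10.9% and 12.4% (median -0.07). Whether the class difference goes beyond level was not tested. The protein-coding genes called higher had a median gene span of 40.7 kb and a median GC content of the mature transcript of 46.5%. The values were 22.4 kb and 56.1% for those called lower and 32.5 kb and 48.8% for all tested.

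**Figure D1:**
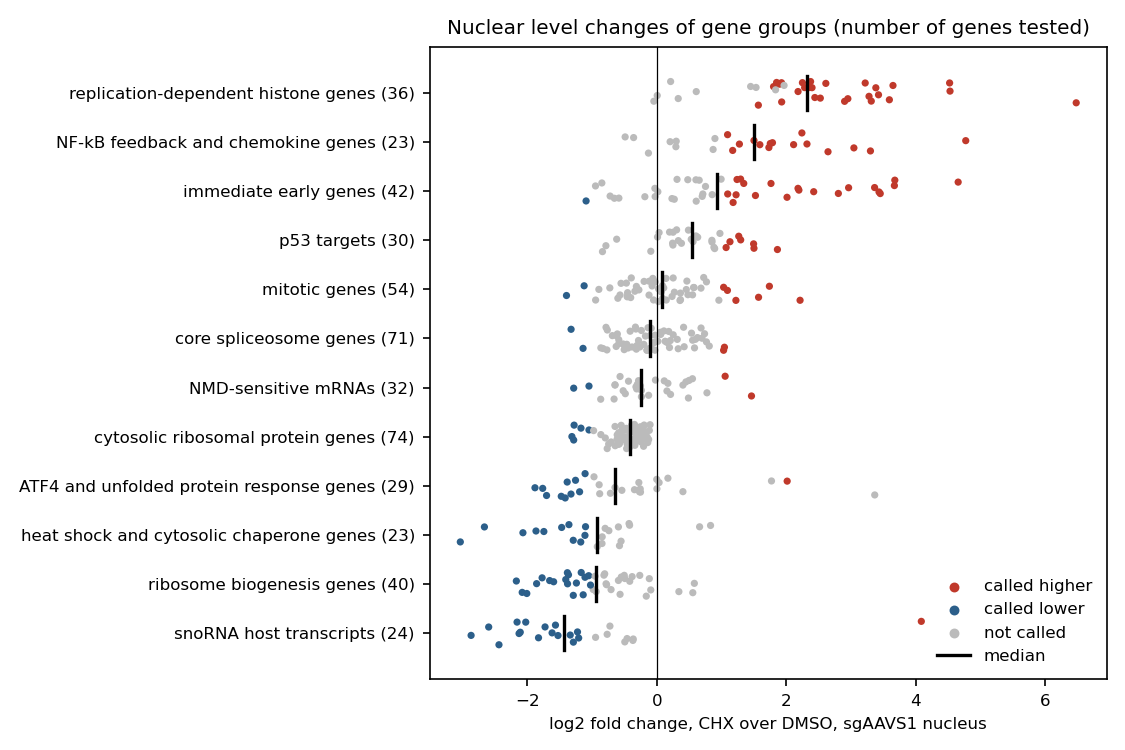
Log2 fold change of each tested gene (CHX over DMSO, sgAAVS1 nucleus, x axis) in 12 gene lists (rows, with the number of genes tested), with called genes coloured by direction and a black bar at the list's median. The medians lie between 2.32 for replication-dependent histone genes at the top and -1.43 for snoRNA host transcripts at the bottom, with all 74 ribosomal protein genes below 0.

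Immediate early genes encode transcription factors, feedback phosphatases and matricellular proteins that are switched on within minutes of a stimulus. With CHX 20 of 42 tested members were called higher and 1 lower, with a median log2 fold change of 0.92 against 0.01 over all genes. EGR2, a zinc-finger transcription factor, had 19.5, 16.8 and 22.3 CPM in CHX nuclei and 1.06, 0.478 and 0.761 CPM in DMSO nuclei (log2 fold change 4.66 ± 0.22, adjusted p = 6.72e-12). CCN2, a secreted matricellular protein, had 118, 118 and 139.9 CPM in CHX nuclei and 11.1, 10.5 and 7.75 CPM in DMSO nuclei (log2 fold change 3.68 ± 0.15, adjusted p = 1.6e-12). NR4A3, an orphan nuclear receptor, had 9.35, 12.5 and 11.3 CPM in CHX nuclei and 0.839, 0.921 and 0.830 CPM in DMSO nuclei (log2 fold change 3.67 ± 0.23, adjusted p = 2.41e-10). In these 3 genes the lowest CHX library was far above the highest DMSO library.

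FOS, a subunit of the AP-1 transcription factor, was looked up after the values were seen and had 83.7, 86.1 and 93.3 CPM in CHX nuclei and 10.7, 6.21 and 8.51 CPM in DMSO nuclei (log2 fold change 3.37 ± 0.14, adjusted p = 1.4e-12). The stress-induced factor ATF3 (3.45 ± 0.16), the small MAF protein MAFF (3.43 ± 0.10), the zinc-finger factor EGR3 (2.96 ± 0.09), FOSB (2.81 ± 0.09) and KLF10 (2.42 ± 0.07) were also called higher on the log2 scale. These 5 were also looked up after their values were seen. IER3, an early response gene that modulates cell survival, was the only member called lower, with 23.4, 21.5 and 20.9 CPM in CHX nuclei and 50.05, 46.3 and 44.1 CPM in DMSO nuclei (log2 fold change -1.09 ± 0.10, adjusted p = 2.64e-08). Several of the best known members did not pass the fold limit: JUN had a log2 fold change of 0.75 ± 0.07, EGR1 of 0.66 ± 0.07, DUSP1 of -0.18 ± 0.11 and MYC of -0.85 ± 0.08. MYC was at 151, 171 and 145 CPM in CHX nuclei and 279.8, 286 and 275 CPM in DMSO nuclei. Its groups did not overlap, as in most tested genes, although it was not called.

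Among feedback regulators and chemokines of the NF-kB pathway 15 of 23 tested members were called higher and 0 lower, with a median of 1.502. Of the 23 log2 fold changes 20 were above 0 and 3 below. NF-kB is a transcription factor held in the cytoplasm by short-lived inhibitors and it switches on the genes of its own inhibitors. BIRC3, a ubiquitin ligase of the pathway, had 200.5, 212 and 217 CPM in CHX nuclei and 28.5, 24.01 and 23.7 CPM in DMSO nuclei (log2 fold change 3.05 ± 0.09, adjusted p = 2.23e-14). TNFAIP3, which encodes the deubiquitinase A20, had 57.9, 58.2 and 55.5 CPM in CHX nuclei and 12.99, 8.70 and 12.6 CPM in DMSO nuclei (log2 fold change 2.32 ± 0.13, adjusted p = 5.99e-11). NFKB2, the precursor of the p52 subunit, had 588, 545 and 529 CPM in CHX nuclei and 158, 165.3 and 169.7 CPM in DMSO nuclei (log2 fold change 1.75 ± 0.09, adjusted p = 1.45e-11). In each of the 3 the groups stood apart by several times the spread among libraries.

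The chemokine CXCL8 stayed at a low level, with 4.69, 6.11 and 6.47 CPM in CHX nuclei and 0.995, 1.02 and 0.727 CPM in DMSO nuclei (log2 fold change 2.65 ± 0.25, adjusted p = 4.58e-08). The inhibitor gene NFKBIA (1.59 ± 0.10) and the subunit genes RELB (1.73 ± 0.11) and NFKB1 (1.28 ± 0.07) were higher too. IL1A, an alarmin cytokine, had 0.656, 1.69 and 1.35 CPM in CHX nuclei and 0.124, 0.205 and 0.0346 CPM in DMSO nuclei (log2 fold change 3.30 ± 0.67, adjusted p = 0.000374). CCL20, a chemokine, had 0.483, 0.600 and 0.107 CPM in CHX nuclei and 0.0311, 0 and 0 CPM in DMSO nuclei. Its DMSO nuclei held 1 count in all, so the ratio of 35.6 had a 95% counting interval of 5.96 to 1448 (exact, conditional on the summed counts). Both genes rest on few counts. TNFAIP3, NFKB2, CXCL8, NFKBIA, RELB and NFKB1 were picked after their values were seen. The cytokine genes CCL2, CSF2, IL1B, IL6 and TNF did not pass the filter on low counts.

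Many mRNAs of these 2 classes carry AU-rich elements, which recruit decay factors to the 3′ untranslated region. The letters TATTTAT, searched on the mRNA strand of the 3′ untranslated region of each gene's canonical GENCODE transcript, were found in 34.8% of 12767 tested protein-coding genes, in 40.7% of 1497 called higher and in 30.5% of 1529 called lower. Within the lists the letters did not separate members by call. They were present in 12 of the 20 immediate early genes called higher and in 14 of the 21 not called. They were also present in 9 of the 15 NF-kB genes called higher and 5 of the 8 not called. IER3, which was lower, has them as well. A match is a description of the letters and not evidence of a site in use. Stretches of 5 called-higher members are shown to make the element visible. Each has 30 bases of GRCh38 around the first match, 5′ to 3′ on the mRNA strand with every TATTTAT in capitals.
NR4A3 (chr9:99865189-99865218, plus strand): agctttgcctgTATTTATtgcaagaccacc
FOS (chr14:75282060-75282089, plus strand): tgtttttaattTATTTATtaagatggattc
IL1A (chr2:112774435-112774464, minus strand): tttttaattatTATTTATatatgTATTTAT
TNFAIP3 (chr6:137882298-137882327, plus strand): gtaattcacttTATTTATtttattacaaac
CXCL8 (chr4:73742664-73742693, plus strand): atgtaaagtatTATTTATttgaatctacaa

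Genes of the decay machinery itself changed in both directions. Of 30 tested decay and AU-rich element factors 4 were higher and 3 lower, close to the share over all genes. PAN2, the catalytic subunit of a poly(A) nuclease, had 432, 385 and 393 CPM in CHX nuclei and 104, 103 and 113 CPM in DMSO nuclei (log2 fold change 1.92 ± 0.08, adjusted p = 1.89e-12). RC3H2, a Roquin family RNA-binding protein, and the 5′ to 3′ exonuclease XRN1 were at 1.30 ± 0.08 and 1.19 ± 0.07 on the log2 scale. ZFP36L2, which binds AU-rich elements and promotes decay, had 1.69, 3.23 and 3.62 CPM in CHX nuclei and 20.2, 16.3 and 19.2 CPM in DMSO nuclei (log2 fold change -2.71 ± 0.22, adjusted p = 8.52e-09). Its relative ZFP36L1 (-1.15 ± 0.06) and the decay-promoting protein KHSRP (-1.06 ± 0.09) were lower as well. Groups did not overlap in any of these 6 genes. Of 19 NMD factors 0 were called by edgeR or by DESeq2 (median -0.25). An unadjusted p under 0.05 was found in 13 and an adjusted p up to 0.05 in 13, the latter against 10163 of all 17330 genes. NBAS was at 0.95 ± 0.10 and the release factor gene GSPT1 at -0.78 ± 0.08.

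**Figure D2:**
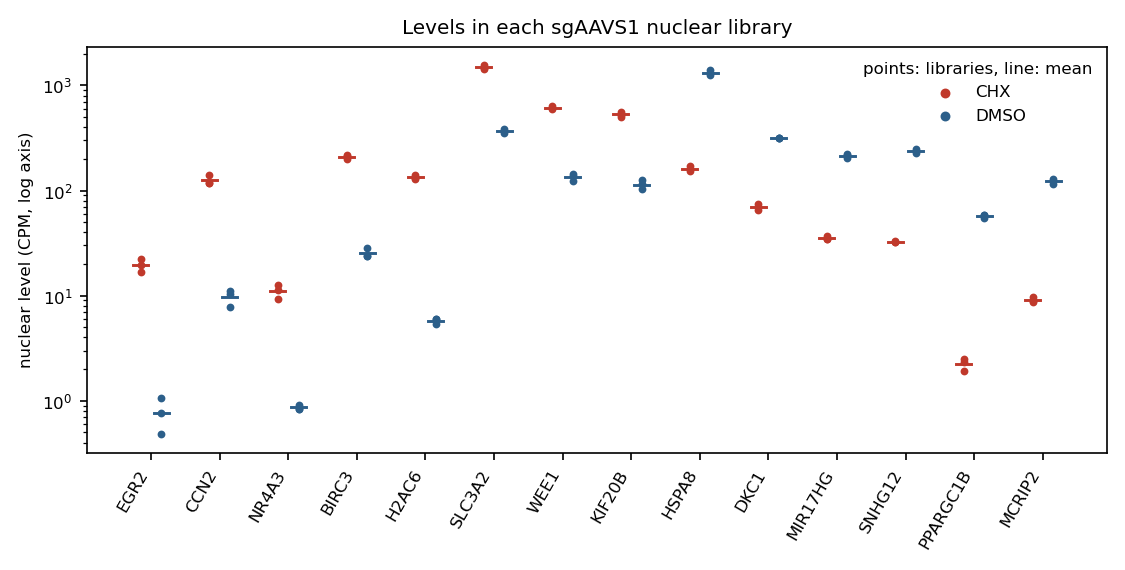
Nuclear level (CPM, log axis) of 14 genes in each library, with the 3 CHX libraries in red to the left of the 3 DMSO libraries in blue and a short line at each mean. Red points lie above blue points for the first 8 genes and under them for the other 6, and the 2 groups do not overlap in any of the 14.

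Few mRNAs known to be NMD-sensitive passed the fold limit in the nucleus. Of 32 tested 2 were called higher and 2 lower (median -0.25), although 27 had an adjusted p up to 0.05, against 10163 of all 17330 genes. In a fit of the sgAAVS1 libraries of both fractions 8 were called higher and 0 lower in the cytoplasm, where 12.2% of all genes were called higher and 6.74% lower. GADD45A, a stress response gene and a classic NMD-sensitive mRNA, had 161, 168 and 176 CPM in CHX nuclei and 81.6, 87.0 and 74.4 CPM in DMSO nuclei (log2 fold change 1.06 ± 0.11, adjusted p = 1.73e-07). Its cytoplasmic means were 861 CPM with CHX and 74.2 CPM with DMSO. The nuclear effect minus the cytoplasmic effect was -2.48 ± 0.09 on the log2 scale (SE, adjusted p = 7.38e-14). When the counts were offset for transcript length, the nuclear change of GADD45A was 0.91 and the call was lost. GADD45B showed the same order, with a nuclear log2 fold change of 1.46 ± 0.09, a cytoplasmic one of 3.64 and a difference of -2.17 ± 0.10. The differences of the transcription factor genes ATF4 (-1.26 ± 0.07) and DDIT3 (-1.57 ± 0.14), of the helicase EIF4A2 (-1.86 ± 0.07) and of the splicing repressor PTBP2 (-1.18 ± 0.09) were also below 0. In all 8 members had such a difference (8.17% of all genes), against 0 in the other direction (7.23%). The 2 members called lower were RPL12 and RPL10A, ribosomal protein genes known for NMD-sensitive splice forms.

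The transcripts that host small nucleolar RNAs (snoRNAs) in their introns had the lowest median of the 30 lists. snoRNAs guide modifications of ribosomal RNA and are cut from the introns of their hosts. The spliced hosts such as GAS5 and SNHG1 are themselves known to be NMD-sensitive in the cytoplasm. Of 24 tested hosts 16 were called lower and 1 higher, with a median of -1.43. SNHG12 had 32.7, 33.1 and 32.1 CPM in CHX nuclei and 239, 226 and 250.1 CPM in DMSO nuclei (log2 fold change -2.87 ± 0.08, adjusted p = 1.61e-14). GAS5 had 284, 275 and 285 CPM in CHX nuclei and 1219, 1233 and 1317 CPM in DMSO nuclei (log2 fold change -2.16 ± 0.08, adjusted p = 5.45e-13). SNHG1 had 605, 522 and 569 CPM in CHX nuclei and 1705, 1662 and 1839 CPM in DMSO nuclei (log2 fold change -1.62 ± 0.07, adjusted p = 3.4e-12). In each of these hosts the highest CHX library was less than any DMSO library by several times the spread. SNHG19 (-2.60 ± 0.23) and SNHG4 (-2.44 ± 0.10) were lower too. SNHG14 was the host called higher, at 0.725, 0.263 and 0.320 CPM in CHX nuclei and 0, 0.0682 and 0 CPM in DMSO nuclei. With 2 DMSO counts its ratio of 20 had a 95% counting interval of 5.15 to 171. That call was lost with the length offset. GAS5 and SNHG1 were picked after their values were seen.

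In the cytoplasm the same hosts did not fall together. Their median log2 fold change there was 0.07, with 4 called higher and 2 lower. The effect of CHX differed between the fractions in 13 of the 24, each with the nuclear effect the lower one. The cytoplasmic means of SNHG12 were 32.5 CPM with CHX and 11.5 CPM with DMSO. The nuclear effect minus the cytoplasmic effect was -4.37 ± 0.09 (SE, adjusted p = 3.49e-17), the lowest of the differences that passed the naming limit of 5 CPM in both fractions. For SNHG1 the cytoplasmic means were 295 CPM with CHX and 88.2 CPM with DMSO and the difference was -3.37 ± 0.08 (adjusted p = 4.18e-16). GAS5 was level in the cytoplasm, with 229.7 CPM with CHX and 234 CPM with DMSO, and its difference was -2.13 ± 0.06 (adjusted p = 8.26e-15).

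**Figure D3:**
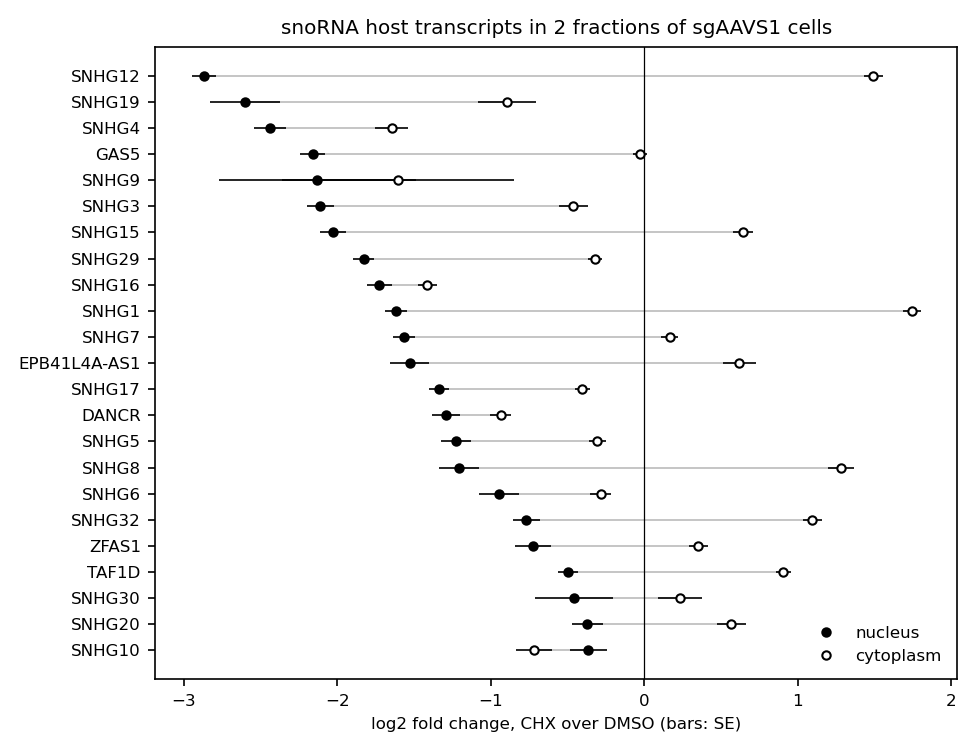
Log2 fold change (CHX over DMSO, x axis) of snoRNA host transcripts of sgAAVS1 cells (rows) in the nucleus (filled points) and in the cytoplasm (open points), with bars for the SE. SNHG14, which had almost no counts with DMSO, is left out. Nuclear points of all hosts shown lie below 0, and SNHG12 and SNHG1 have cytoplasmic points of 1.49 and 1.74.

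Genes for the protein side of the ribosome had smaller differences, all in 1 direction. All 74 cytosolic ribosomal protein genes had a nuclear log2 fold change below 0 (median -0.42), and 5 were called lower, a smaller share than over all genes. RPL37 had 81.1, 94.2 and 93.5 CPM in CHX nuclei and 227, 214 and 226 CPM in DMSO nuclei (log2 fold change -1.31 ± 0.09, adjusted p = 9.65e-10). RPL12 had 223, 229 and 204 CPM in CHX nuclei and 518, 552 and 528 CPM in DMSO nuclei (log2 fold change -1.28 ± 0.09, adjusted p = 6.31e-10). RPS6 and RPLP0 were at -0.26 ± 0.10 and -0.21 ± 0.07. With the length offset none of the 74 was called, 73 were below 0 and the median was -0.23. The genes that build ribosomes had a lower median. Of 40 tested ribosome biogenesis genes 18 were called lower and 0 higher (median -0.95). DKC1, the pseudouridine synthase of box H/ACA particles, had 70.4, 74.1 and 65.9 CPM in CHX nuclei and 314, 318 and 315 CPM in DMSO nuclei (log2 fold change -2.17 ± 0.08, adjusted p = 2.09e-13). MYBBP1A, a nucleolar MYB-binding protein, and BOP1, a factor of large-subunit maturation, were at -2.08 ± 0.09 and -2.01 ± 0.12. The nucleolar proteins NOP56 and NCL, looked up after their values were seen, were at -1.38 ± 0.08 and -1.24 ± 0.07. The groups did not overlap in any of these 5 biogenesis genes.

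Ribosomal protein mRNAs, and some snoRNA hosts, are known for a start with a C followed by a run of pyrimidines, the 5′ terminal oligopyrimidine motif. A C and at least 4 further pyrimidines (C or T) exactly at the annotated RefSeq start (GRCh38.p14, read on the gene's own strand) were found at 4.07% of 35116 RefSeq starts and at 5.18% of the 16122 starts of tested genes. They were found at 43 of 74 starts of ribosomal protein genes and at 7 of 21 starts of snoRNA hosts. The starts of genes called lower held it in 5.31% of cases and those of genes called higher in 3.52%. Starts of 3 ribosomal protein genes and of SNHG12 are shown as examples that hold it, unlike most host starts. Each has 20 bases before and 30 bases from the annotated start and the pyrimidine run in capitals.
RPL12 (chr9:127451377-127451426, minus strand): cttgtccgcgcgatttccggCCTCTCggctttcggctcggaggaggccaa
RPS6 (chr9:19380207-19380256, minus strand): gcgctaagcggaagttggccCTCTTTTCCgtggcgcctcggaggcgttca
RPLP0 (chr12:120201082-120201131, minus strand): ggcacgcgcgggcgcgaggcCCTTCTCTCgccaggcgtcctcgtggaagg
SNHG12 (chr1:28581844-28581893, minus strand): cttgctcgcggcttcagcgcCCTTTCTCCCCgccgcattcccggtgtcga

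Heat shock and cytosolic chaperone genes, which help new proteins to fold, were lower or not called. Of the list 11 of 23 were called lower and 0 higher, with a median of -0.92. The log2 fold change was below 0 in 21 members and above 0 in 2. HSPA8, the constitutive HSP70 chaperone, had 159.9, 171 and 153 CPM in CHX nuclei and 1316, 1399 and 1251 CPM in DMSO nuclei (log2 fold change -3.04 ± 0.09, adjusted p = 3.07e-14). In the cytoplasm HSPA8 averaged 408 CPM with CHX and 3697 CPM with DMSO. The inducible HSP70 gene HSPA1B had 46.4, 49.2 and 44.1 CPM in CHX nuclei and 183, 216 and 187 CPM in DMSO nuclei (log2 fold change -2.07 ± 0.10, adjusted p = 5.97e-12). Its near-identical copy HSPA1A was at -2.66 ± 0.39, so reads may be split between both. DNAJB1, a cofactor of HSP70, had 25.1, 23.9 and 24.8 CPM in CHX nuclei and 84.6, 93.8 and 90.9 CPM in DMSO nuclei (log2 fold change -1.87 ± 0.08, adjusted p = 2.4e-12). Groups stood apart in all 4 genes. HSP90AA1 (-1.10 ± 0.10) and the mitochondrial chaperonin HSPD1 (-1.75 ± 0.08), like DNAJB1 looked up after their values were seen, were lower as well. The members called lower also include HSF1, the heat shock transcription factor.

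The letters GAANNTTC or TTCNNGAA, which make up 2 adjoining units of the heat shock element, were searched on both strands in the 300 bases around each RefSeq start. Each is its own reverse complement. Matches can overlap where units repeat. One or the other occurs at 13.5% of all RefSeq starts, at 10.5% of starts of tested genes and at 16 of 34 starts of chaperone genes. The promoters of 4 members called lower are shown because they hold these letters, as 60 bases each from RefSeq on GRCh38.p14 with matches in capitals.
HSPA8 (chr11:123062147-123062206, minus strand): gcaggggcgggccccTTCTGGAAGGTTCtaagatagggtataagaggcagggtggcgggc
HSPA1B (chr6:31827608-31827667, plus strand): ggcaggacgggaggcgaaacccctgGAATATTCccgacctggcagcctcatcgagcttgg
HSP90AA1 (chr14:102087085-102087144, minus strand): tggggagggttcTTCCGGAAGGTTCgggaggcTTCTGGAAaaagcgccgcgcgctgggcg
DNAJB1 (chr19:14518423-14518482, minus strand): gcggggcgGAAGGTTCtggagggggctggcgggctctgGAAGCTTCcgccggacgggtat

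Genes of the ATF4 and unfolded protein responses, which answer amino acid shortage and misfolding, were lower in 10 of 29 cases and higher in 1, with a median of -0.65. The exception was SLC3A2, the heavy chain of amino acid transporters, with 1548, 1480.1 and 1442 CPM in CHX nuclei and 368, 383 and 356 CPM in DMSO nuclei (log2 fold change 2.01 ± 0.06, adjusted p = 5.57e-14). Its light chain partner SLC7A5 had 30.3, 36.7 and 32.0 CPM in CHX nuclei and 104, 113 and 106 CPM in DMSO nuclei (log2 fold change -1.70 ± 0.11, adjusted p = 2.68e-10). The subunits of one transporter thus moved apart. The arginine transporter SLC7A1 (-1.76 ± 0.10) and the angiogenic factor VEGFA (-1.88 ± 0.08) were lower.

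Replication-dependent histone genes had the highest median of the 30 lists. Their mRNAs normally end in a stem-loop without a poly(A) tail, so a library of polyadenylated RNA counts only the minority that carry a tail. Of 36 tested members, out of 60 listed, 27 were called higher and 0 lower, with a median of 2.32. H2AC6 had 127, 132 and 139 CPM in CHX nuclei and 5.32, 6.00 and 5.95 CPM in DMSO nuclei (log2 fold change 4.53 ± 0.12, adjusted p = 9.06e-15). The linker histone gene H1-3 had 3.35, 2.77 and 3.73 CPM in CHX nuclei and 0.0311, 0.0682 and 0 CPM in DMSO nuclei. With 3 DMSO counts in all its ratio was 99.2 (95% counting interval 33.6 to 484). H2BC18 had 1.62, 1.35 and 1.85 CPM in CHX nuclei and 0.0622, 0.136 and 0 CPM in DMSO nuclei (log2 fold change 4.52 ± 0.92, adjusted p = 0.000356). Each had 1 DMSO library at 0. Summed over the 36 genes the level was 355 to 392.2 CPM in CHX nuclei and 41.1 to 47.9 CPM in DMSO nuclei, so the groups did not overlap. Several histone genes are near-identical copies and reads may be shared among them. Of 9 replication-independent histone genes, whose mRNAs have ordinary tails, 3 were higher, among them H1-10 (1.34 ± 0.19) and H3-3B (1.05 ± 0.07).

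Cell cycle genes changed singly and not as lists. Among 32 cyclins, E2F factors and cell cycle entry genes 3 were higher and 3 lower. WEE1, the kinase that holds CDK1 inactive, had 608, 596 and 632 CPM in CHX nuclei and 145, 138 and 122 CPM in DMSO nuclei (log2 fold change 2.18 ± 0.08, adjusted p = 3.12e-13). The repressive E2F factors E2F7 (1.98 ± 0.11) and E2F8 (1.58 ± 0.08) were higher with it. CCND1, cyclin D1, had 25.2, 26.8 and 24.98 CPM in CHX nuclei and 109, 102 and 101 CPM in DMSO nuclei (log2 fold change -2.02 ± 0.08, adjusted p = 8.49e-13). The factor E2F5 (-1.81 ± 0.13) and cyclin E1 (CCNE1, -1.15 ± 0.11) were lower. Of 52 DNA replication genes 1 was higher (RPA3, 1.03 ± 0.24) and 2 lower (POLD1, -1.23 ± 0.08, and TIMELESS, -1.07 ± 0.07). Of 54 mitotic genes 6 were higher and 2 lower. The kinesin gene KIF20B had 528, 495 and 564 CPM in CHX nuclei and 125, 115 and 103 CPM in DMSO nuclei (log2 fold change 2.21 ± 0.10, adjusted p = 3.27e-12). The kinesin KIF18A (1.74 ± 0.12) and the hyaluronan receptor HMMR (1.57 ± 0.10) were higher too, and AURKB (-1.40 ± 0.09) and CENPF (-1.12 ± 0.08) were lower.

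microRNA host transcripts were lower in 6 of 15 cases and higher in 2. MIR17HG, the primary transcript of the miR-17-92 cluster, had 36.5, 34.4 and 34.6 CPM in CHX nuclei and 218, 202 and 223 CPM in DMSO nuclei (log2 fold change -2.61 ± 0.08, adjusted p = 2.79e-14). The hypoxia-linked MIR210HG had 0.138, 0.638 and 0.533 CPM in CHX nuclei and 7.59, 9.31 and 5.95 CPM in DMSO nuclei (log2 fold change -4.13 ± 0.43, adjusted p = 2.04e-07). MIR193BHG was at -2.27 ± 0.20. In the other direction MIR4435-2HG had 614, 583 and 568 CPM in CHX nuclei and 157, 167 and 136 CPM in DMSO nuclei (log2 fold change 1.94 ± 0.09, adjusted p = 8.31e-12). MIR194-2HG was at 2.18 ± 0.30. These are levels of the polyadenylated host RNA, and mature microRNAs are too short for these libraries. From the MIR17HG cluster 6 RefSeq mature microRNAs, all on the plus strand of chromosome 13 (GRCh38.p14), are shown as examples of the target-recognition sequences this transcript encodes. Products of the opposite hairpin arms are left out. The seed (bases 2 to 8) is in capitals. The 6 shown fall into 4 seeds. miR-17-5p and miR-20a-5p share one, miR-19a-3p and miR-19b-3p share another, and miR-18a-5p and miR-92a-3p have one each.
hsa-miR-17-5p (chr13:91350618-91350640, plus strand): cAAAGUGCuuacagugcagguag
hsa-miR-20a-5p (chr13:91351072-91351094, plus strand): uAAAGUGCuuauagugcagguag
hsa-miR-18a-5p (chr13:91350756-91350778, plus strand): uAAGGUGCaucuagugcagauag
hsa-miR-19a-3p (chr13:91350939-91350961, plus strand): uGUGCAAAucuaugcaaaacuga
hsa-miR-19b-3p (chr13:91351245-91351267, plus strand): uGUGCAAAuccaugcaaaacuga
hsa-miR-92a-3p (chr13:91351361-91351382, plus strand): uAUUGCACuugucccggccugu

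Sterol, interferon and p53 genes gave shorter accounts. Of 27 cholesterol genes 5 were lower and 0 higher (median -0.35). The lanosterol demethylase CYP51A1 had 9.25, 7.13 and 8.14 CPM in CHX nuclei and 47.0, 50.3 and 43.7 CPM in DMSO nuclei (log2 fold change -2.52 ± 0.15, adjusted p = 9.58e-11). The sterol-responsive factor SREBF1 was at -1.51 ± 0.10. Of 37 interferon-stimulated genes 5 were higher (13.5%) and 3 lower (8.11%), not above the 14.4% and 10.8% over all genes. Among the called members were GBP2 (2.90 ± 0.26), RSAD2 (2.07 ± 0.73) and IRF7 (1.75 ± 0.13), against IFI44, IFIT5 (-1.35 ± 0.15) and IRF9 (-1.06 ± 0.09). RSAD2 rests on few counts, and IFI44 had 2 counts in CHX nuclei and 30 in DMSO nuclei (ratio 0.0719, 95% counting interval 0.00833 to 0.283). Of 30 p53 targets 7 were higher and 0 lower (median 0.55), among them EDA2R (1.86 ± 0.58) and CD82 (1.496 ± 0.16). The ubiquitin ligase subunit FBXW7 had 242, 223 and 242 CPM in CHX nuclei and 86.3, 79.8 and 83.3 CPM in DMSO nuclei (log2 fold change 1.502 ± 0.08, adjusted p = 2.21e-11). The best known targets CDKN1A (0.49 ± 0.08) and MDM2 (0.88 ± 0.10) stayed within the fold limit.

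Of 12 genes with feedback through retained introns or metabolites 2 were higher and 2 lower (16.7% each), against 14.4% and 10.8% over all genes. MAT2A, which makes S-adenosylmethionine and is regulated by splicing of its own introns, had 391, 359.9 and 371 CPM in CHX nuclei and 1003, 971 and 1041 CPM in DMSO nuclei (log2 fold change -1.43 ± 0.08, adjusted p = 6.01e-11). It averaged 44.8 CPM with CHX and 579 CPM with DMSO in the cytoplasm, and the nuclear effect minus the cytoplasmic effect was 2.26 ± 0.08 (adjusted p = 2.84e-14). OGA, which removes O-GlcNAc, had 1300.3, 1264 and 1315 CPM in CHX nuclei and 425, 394 and 409.7 CPM in DMSO nuclei (log2 fold change 1.66 ± 0.07, adjusted p = 3.99e-12). The polyamine-catabolic SAT1 (1.31 ± 0.10) was higher, while spermidine synthase SRM was lower (-1.36 ± 0.12). Among 12 nuclear-retained RNAs MALAT1 (0.38 ± 0.12) and NEAT1 (-0.17 ± 0.08) were not called and FTX (-1.17 ± 0.09) was lower. Of 12 mitochondrially encoded mRNAs 1 was called, MT-ND6, the only one of the light strand, at -1.82 ± 0.18.

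Of the 10 genes that the study follows 2 were called, both higher. PIK3C2A, a lipid kinase, had 310.0, 287 and 334 CPM in CHX nuclei and 114, 119 and 118 CPM in DMSO nuclei (log2 fold change 1.41 ± 0.07, adjusted p = 2.38e-11). The other was GADD45A. JAK2, the kinase of the interferon gamma receptor, had 57.1, 50.7 and 59.1 CPM in CHX nuclei and 32.2, 25.00 and 28.1 CPM in DMSO nuclei. It just missed the fold limit (0.97 ± 0.11, adjusted p = 5.8e-07). HSPA4L, an HSP110 family chaperone, had 159, 161 and 168 CPM in CHX nuclei and 94.8, 91.5 and 88.0 CPM in DMSO nuclei (0.83 ± 0.09). ERH itself had 15.6, 14.2 and 14.1 CPM in CHX nuclei and 16.5, 21.8 and 15.6 CPM in DMSO nuclei. The groups were barely apart, with no detectable difference (-0.30 ± 0.16, adjusted p = 0.127). JAK1 (0.40 ± 0.06), IRF1 (0.30 ± 0.11), IFNGR1 (0.46 ± 0.15) and IFNGR2 (-0.33 ± 0.11) were within the fold limit. Among the markers, KRT8 was higher (1.74 ± 0.08) and the intestinal transcription factor CDX2 lower (-1.77 ± 0.20), while COL1A1 (1.25 ± 0.33), CD68 (1.12 ± 0.15) and ITGAM (5.96 ± 0.24) were higher. The fibroblast gene COL3A1 had 0 counts in all DMSO nuclei and was at least 9.36-fold higher with CHX, taking 3 counts per library as the floor.

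By size alone, the 10 highest genes above a mean of 5 CPM had next to no RNA in DMSO nuclei. ABCC9, an ATP-binding cassette subunit of potassium channels, had 19.1, 17.6 and 18.8 CPM in CHX nuclei and 0, 0.0682 and 0 CPM in DMSO nuclei. With 2 DMSO counts its ratio of 836 had a 95% counting interval of 231 to 6908. Counting intervals cover counting error only. SPTBN5, a spectrin, had 29.7, 30.8 and 31.3 CPM in CHX nuclei and 0.249, 0.614 and 0.208 CPM in DMSO nuclei (log2 fold change 6.42 ± 0.41, adjusted p = 3.65e-10). NTRK3, a neurotrophin receptor, had 19.01, 15.7 and 18.3 CPM in CHX nuclei and 0.218, 0.136 and 0.242 CPM in DMSO nuclei (log2 fold change 6.45 ± 0.33, adjusted p = 1.86e-11). ARL14 had 841 counts in CHX nuclei and 1 count in DMSO nuclei (ratio 907, interval 162 to 35867). The others were the pseudogene IMPDH1P10 (7.32 ± 0.50), LY6K (6.35 ± 0.48), DOCK3 (6.12 ± 0.52), RGS20 (6.11 ± 0.52), ITGAM and the long non-coding RNA LNCATV (5.92 ± 0.40). In no case did a DMSO library exceed 1 CPM. IMPDH1P10 resembles its parent gene and its reads may be uncertain.

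The 10 lowest genes were well above 0 in DMSO nuclei. The limit of a mean of 5 CPM requires this of genes that fall, so it sets up no contrast with the highest genes. PPARGC1B, a coactivator of mitochondrial genes, had 2.48, 1.91 and 2.34 CPM in CHX nuclei and 58.8, 54.9 and 59.1 CPM in DMSO nuclei (log2 fold change -4.68 ± 0.14, adjusted p = 2.79e-14). MCRIP2 had 8.83, 8.74 and 9.81 CPM in CHX nuclei and 116, 123 and 128 CPM in DMSO nuclei (log2 fold change -3.74 ± 0.09, adjusted p = 2.84e-15). The epithelial splicing regulator ESRP2 had 12.5, 11.6 and 16.6 CPM in CHX nuclei and 127, 124 and 126 CPM in DMSO nuclei (log2 fold change -3.21 ± 0.13, adjusted p = 9.7e-13). TFAP4, a helix-loop-helix transcription factor, had 4.86, 4.84 and 3.801 CPM in CHX nuclei and 45.5, 43.6 and 46.5 CPM in DMSO nuclei (log2 fold change -3.33 ± 0.12, adjusted p = 3.94e-13). ZIC5 (-3.63 ± 0.29), BEGAIN (-3.48 ± 0.16), the Dickkopf receptor KREMEN2 (-3.44 ± 0.16), ANKRD13B (-3.37 ± 0.13), the antisense transcript PRKAG2-AS1 (-3.34 ± 0.23) and the serine protease PRSS22 (-3.21 ± 0.13) completed the set. Whether gene counting used the strand is not given in the sources used here, so an antisense gene cannot be told from its partner.

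Where the nuclear response differs from the cytoplasmic one was tested in a fit of the 12 sgAAVS1 libraries of both fractions. Of 17055 genes 2626 had a difference of at least 1 on the log2 scale (15.4%), with the nuclear effect above the cytoplasmic one in 1233 and below it in 1393. With library totals in place of TMM scaling that split was 769 above and 2029 below, so the balance of directions depends on the scaling. In this fit 4484 genes were called in the nucleus and 3232 in the cytoplasm (19% of those tested), of which 1161 were higher in both and 533 lower in both. Opposite calls were rare. There were 15 genes higher in the nucleus and lower in the cytoplasm, and 49 lower in the nucleus and higher in the cytoplasm.

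Among genes with at least 5 CPM in both fractions, the largest positive differences were seen in genes that were held or raised in the nucleus while the cytoplasm fell. TNFRSF10D, a decoy receptor for the death ligand TRAIL, had 224, 212 and 218 CPM in CHX nuclei and 176, 174 and 153 CPM in DMSO nuclei. In the cytoplasm it averaged 20.3 CPM with CHX and 146 CPM with DMSO (difference 3.22 ± 0.09, adjusted p = 6.17e-15). ZMAT3, a p53-induced RNA-binding protein, had nuclear and cytoplasmic log2 fold changes of 0.38 and -2.82 (difference 3.19 ± 0.09). MIR600HG, LRRC49 and ADIRF-AS1 had differences of 3.23 ± 0.18, 3.02 ± 0.13 and 2.85 ± 0.13. At the other end, after SNHG12, stood KREMEN2 (-4.07 ± 0.21), TIMM23B-AGAP6 (-3.95 ± 0.38), a readthrough transcript that shares its sequence with other genes, SPTBN1 (-3.64 ± 0.06) and MCRIP2 (-3.38 ± 0.13). SPTBN1, a spectrin, had 199, 189 and 198 CPM in CHX nuclei and 957, 934 and 888 CPM in DMSO nuclei (log2 fold change -2.25 ± 0.08, adjusted p = 3.26e-13). It averaged 228 CPM with CHX and 86.6 CPM with DMSO in the cytoplasm, with opposite directions in the fractions.

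Intron retention was measured as the coverage depth of an intron relative to the reads spliced across it. The IR ratio is the share of the intron depth in the sum of both. Of 121954 introns tested 13094 were called (10.7%), 7103 with more retention with CHX (5.82%) and 5991 with less (4.91%). Some entries are overlapping forms of one intron and share reads, so counts of introns are not counts of independent introns. Among 90022 introns of canonical transcripts 5207 were higher and 4576 lower. Among introns without a caller warning the split turned, with 3408 higher and 3719 lower. Introns were called only where the mean IR ratio of one group or the other reached 0.05. The 2 directions fell on different introns. Those called higher had a median length of 2271 bases and a median GC content of 39.8%, and those called lower 580 bases and 55.6%. Under 200 bases 391 of 15755 introns were called higher and 1282 lower (median log2 fold change -0.35). Between 200 and 1000 bases it was 1292 and 2520 of 30926 (median -0.26), between 1000 and 5000 bases 3840 and 1597 of 46314 (median 0.18), and from 5000 bases 1580 and 592 of 28959 (median 0.15).

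Introns of ribosomal protein genes had the lowest median of the gene lists. Of 397 tested 197 were called lower and 0 higher, with a median of -1.21 against 0.00 over all introns. All 73 genes with canonical introns had a median below 0. Over their 248 introns of canonical transcripts the intron depth per 100 spliced reads was 6.40, 5.49 and 5.98 in CHX nuclei and 14.8, 12.1 and 14.8 in DMSO nuclei. The groups did not overlap. RPL12 intron 3 (chr9:127449363-127449609, minus strand, GRCh38, 247 bases) had IR ratios of 0.03, 0.01 and 0.02 in CHX nuclei and 0.11, 0.09 and 0.10 in DMSO nuclei (log2 fold change -2.45 ± 0.25, adjusted p = 1.39e-05). RPL10 intron 3 had IR ratios of 0.15, 0.13 and 0.14 in CHX nuclei and 0.30, 0.28 and 0.30 in DMSO nuclei (-1.34 ± 0.13). RPL13A intron 3 had 0.02, 0.01 and 0.02 in CHX nuclei and 0.09, 0.07 and 0.09 in DMSO nuclei (-2.29 ± 0.18). RPS18 intron 2 (-1.56 ± 0.20), RPL7A intron 7 (-1.26 ± 0.13) and RPLP0 intron 2 (-1.18 ± 0.18) were lower too. These 6 introns had the most spliced reads among the called introns of the list and were chosen after the values were seen.

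**Figure D4:**
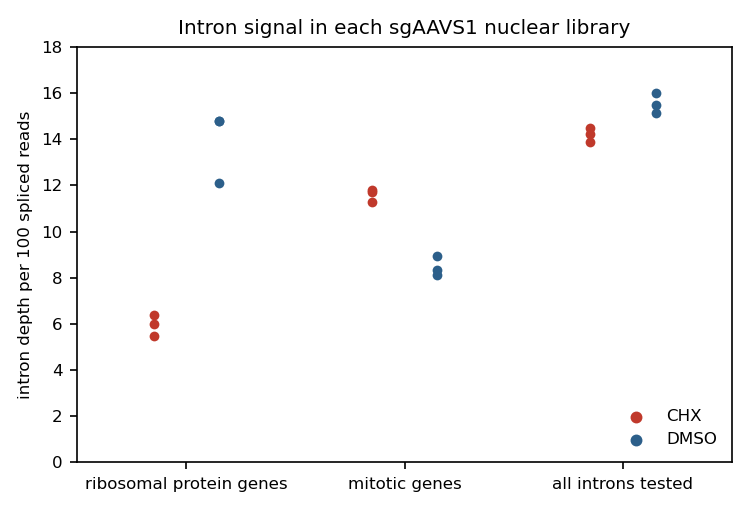
Summed intron depth per 100 spliced reads (y axis, from 0) in each library, CHX libraries in red and DMSO libraries in blue. Only introns of canonical transcripts are summed, for ribosomal protein genes, for mitotic genes and over all tested introns. Ribosomal protein introns lie at 5.49 to 6.40 with CHX and 12.1 to 14.8 with DMSO, and mitotic introns lie higher with CHX, at 11.3 to 11.8, than with DMSO, at 8.10 to 8.95.

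Mitotic genes moved the other way. Of 984 tested introns 161 were called higher and 8 lower (median 0.58), and 46 of the 54 genes had a canonical-intron median above 0. Over their 819 introns of canonical transcripts the intron depth per 100 spliced reads was 11.7, 11.3 and 11.8 in CHX nuclei and 8.10, 8.32 and 8.95 in DMSO nuclei. Over all 90022 tested introns of canonical transcripts it was 14.5, 13.9 and 14.2 in CHX nuclei and 15.5, 15.2 and 16 in DMSO nuclei. In SMC4, a condensin subunit, intron 11 (chr3:160417957-160419357, plus strand, 1401 bases) had IR ratios of 0.23, 0.22 and 0.24 in CHX nuclei and 0.03, 0.03 and 0.03 in DMSO nuclei (log2 fold change 3.28 ± 0.26, adjusted p = 1.65e-06). The neighbouring introns 10 and 12 were at 2.81 ± 0.33 and 1.75 ± 0.20. The spindle protein ASPM kept more of intron 25 (IR ratios 0.20, 0.17 and 0.22 in CHX nuclei and 0.04, 0.04 and 0.04 in DMSO nuclei, log2 fold change 2.63 ± 0.29). The kinetochore protein CENPF kept more of intron 13 (2.48 ± 0.28), although the level of CENPF was lower. These mitotic introns were chosen by spliced reads after the values were seen.

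Introns of splicing regulators were called more often in the direction of retention. Of 386 hnRNP introns 43 were higher (11.1%) and 15 lower (3.89%), against 5.82% and 4.91% over all introns. Of 85 introns of SR protein genes 7 were higher and 1 lower, and 15 of 94 introns of CLK and SRPK kinases were higher and 2 lower. With introns of canonical transcripts alone it was 25 and 8 of 242 for hnRNP genes and 14 and 1 of 72 for the kinases. The count of 15 higher introns of the kinases was 9 without CHX replicate 3 and 9 without DMSO replicate 1. The count of higher hnRNP introns did not keep within 1.5 times among introns without a caller warning, of which fewer were tested. In turn 61 of 985 introns of core spliceosome genes were higher, close to the share over all introns, and 16 lower. SRSF11 intron 1 (chr1:70221840-70228421, plus strand, 6582 bases) had IR ratios of 0.41, 0.42 and 0.45 in CHX nuclei and 0.10, 0.12 and 0.12 in DMSO nuclei (log2 fold change 2.51 ± 0.27, adjusted p = 2.64e-05). HNRNPM intron 6 had 0.13, 0.10 and 0.12 in CHX nuclei and 0.01, 0.02 and 0.02 in DMSO nuclei (2.88 ± 0.30). Immediate early genes, which are short, had 84 tested introns of canonical transcripts. Over these there were 40.1, 38.6 and 38.8 units of intron depth per 100 spliced reads in CHX nuclei and 65.4, 60.2 and 58.4 in DMSO nuclei. Of all 122 tested introns of immediate early genes 5 were called in each direction.

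The detained introns of MAT2A and of the CLK kinases gave different answers. MAT2A intron 7 (chr2:85542748-85542900, plus strand, 153 bases) had IR ratios of 0.59, 0.54 and 0.61 in CHX nuclei and 0.38, 0.38 and 0.36 in DMSO nuclei (log2 fold change 1.23 ± 0.15, adjusted p = 6.31e-05). Mean depth of intron 7, before scaling, was itself lower with CHX (689 against 1167), and spliced reads were lower by more (492 against 1962). Intron 6 had 0.61, 0.56 and 0.62 in CHX nuclei and 0.39, 0.40 and 0.38 in DMSO nuclei (1.22 ± 0.18). The groups did not overlap in either. CLK1, a kinase of splicing factors, held introns 3 and 4 at IR ratios near 0.8 in both groups. Intron 4 (chr2:200859747-200860124, minus strand, 378 bases) had 0.81, 0.83 and 0.82 in CHX nuclei and 0.83, 0.81 and 0.81 in DMSO nuclei, with no detectable difference (0.03 ± 0.16, adjusted p = 0.925), and intron 3 was at 0.22 ± 0.17. When reads spliced exactly between both ends of the intron replaced all spliced reads at either end, however, both were called higher, at 2.70 for intron 4 and 2.86 for intron 3. With the main measure CLK1 introns 2 (1.94 ± 0.28), 5 (1.57 ± 0.22), 6 (1.72 ± 0.19), 7 (1.47 ± 0.17) and 8 (1.22 ± 0.17) were all called higher. Introns 3 and 4 of CLK4 were not called (-0.80 ± 0.20 and -0.82 ± 0.23), and both changed sign, to 1.68 and 1.97, with the exactly spliced reads. The MAT2A and CLK introns were chosen after their values were seen.

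The splice sites of 4 introns are shown because they stand for the patterns described. They are MAT2A intron 7 with more retention, CLK1 intron 4 with a value that depends on which spliced reads are counted, RPL12 intron 3 with less, and SMC4 intron 11 with IR ratios near 0 in DMSO nuclei. Each stretch has 10 exon bases in lower case and 20 intron bases in capitals, 5′ to 3′ on the gene's strand of GRCh38, and all 4 introns begin with GT and end with AG.
MAT2A intron 7 5′ splice site (chr2:85542738-85542767, plus strand): tcttgttcagGTATACACTCTTTATATAAC
MAT2A intron 7 3′ splice site (chr2:85542881-85542910, plus strand): CGACATTTGAATCCTTTTAGgtctcttatg
CLK1 intron 4 5′ splice site (chr2:200860105-200860134, minus strand): agtgcaagatGTATAGAATATTTTTCAACA
CLK1 intron 4 3′ splice site (chr2:200859737-200859766, minus strand): GATTTATTTCTCTCTTTTAGatgaaattgt
RPL12 intron 3 5′ splice site (chr9:127449590-127449619, minus strand): acaggcccagGTATTTGCTTGTGCTTGGTT
RPL12 intron 3 3′ splice site (chr9:127449353-127449382, minus strand): CTCAGGAATCTCTTCTGCAGattgaggtgg
SMC4 intron 11 5′ splice site (chr3:160417947-160417976, plus strand): attaaaggagGTAAATCTTTGCTTCTCTGT
SMC4 intron 11 3′ splice site (chr3:160419338-160419367, plus strand): CATTTTATTTTCACTTTTAGaaagaaaaag

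**Figure D5:**
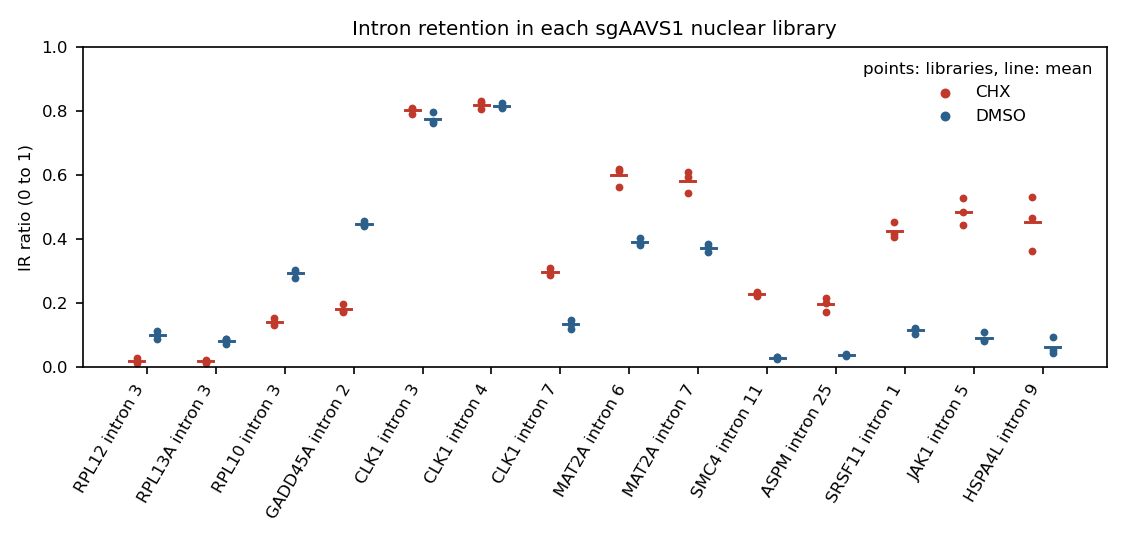
IR ratio (y axis, 0 to 1) of 14 named introns in each library, CHX in red to the left of DMSO in blue, with a short line at each mean. CLK1 introns 3 and 4 sit near 0.8 in both groups, the 3 ribosomal protein introns and GADD45A intron 2 sit lower with CHX, and the other introns sit higher with CHX.

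Of 123 introns of the 10 genes that the study follows 11 were called higher (8.94%) and 7 lower (5.69%), against 5.82% and 4.91% over all introns. Overlapping entries of JAK1, GADD45A and IRF1 are among these. With the 93 introns of canonical transcripts alone 10 were higher and 4 lower. The calls lie in 4 and 3 genes, with PIK3C2A counted in both. Over all 11026 genes 3016 had an intron called higher and 2678 one called lower. JAK1 intron 5 (chr1:64869475-64873369, minus strand) had IR ratios of 0.53, 0.48 and 0.44 in CHX nuclei and 0.11, 0.08 and 0.08 in DMSO nuclei (log2 fold change 3.25 ± 0.38, adjusted p = 4.53e-05). Its intron 12 was at 2.05 ± 0.31. HSPA4L intron 9 had IR ratios of 0.53, 0.36 and 0.47 in CHX nuclei and 0.05, 0.09 and 0.05 in DMSO nuclei (3.52 ± 0.50). Its neighbour intron 8 was at 2.78 ± 0.39. JAK2 intron 10 had IR ratios of 0.41, 0.37 and 0.35 in CHX nuclei and 0.07, 0.15 and 0.31 in DMSO nuclei (1.82 ± 0.55), with DMSO libraries spread widely. Its intron 9 was at 3.02 ± 0.87. The call of intron 10 held in 3 of 12 alternatives (0.92 without DMSO replicate 1) and that of intron 9 in 5 of 12. GADD45A intron 2, whose gene was higher, had less retention, with IR ratios of 0.17, 0.20 and 0.18 in CHX nuclei and 0.46, 0.44 and 0.44 in DMSO nuclei (-1.87 ± 0.20, adjusted p = 2.21e-05). Mean depth of that intron, before scaling, was 211 with CHX and 226 with DMSO, and mean spliced reads were 951 and 278. GADD45A intron 1 was at -1.11 ± 0.18. In PIK3C2A introns 4 (1.47 ± 0.40) and 16 (1.25 ± 0.40) were higher, in 7 and 5 of 13 alternatives, and intron 20 (-2.06 ± 0.43) was lower in all 12. In IRF1 intron 7 was lower (-1.98 ± 0.52).

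Among the 8 highest and 8 lowest introns several had no depth at all in one group, and for these IR ratios are given and no fold. UPRT intron 4 had IR ratios of 0.53, 0.43 and 0.43 in CHX nuclei and 0, 0 and 0 in DMSO nuclei, and CTR9 intron 9 of 0.13, 0.09 and 0.08 in CHX nuclei and 0, 0 and 0 in DMSO nuclei. In the other direction F12 intron 9 had IR ratios of 0, 0 and 0 in CHX nuclei and 0.64, 0.64 and 0.74 in DMSO nuclei, SLC27A5 intron 9 of 0, 0 and 0 in CHX nuclei and 0.39, 0.41 and 0.17 in DMSO nuclei and DDIT4 intron 1 of 0, 0 and 0 in CHX nuclei and 0.33, 0.68 and 0.77 in DMSO nuclei. These 5 introns were given because a group had no depth, so the separation of their groups follows from that choice. Mean spliced reads were few in F12 intron 9 (8.33 with CHX and 22.3 with DMSO) and DDIT4 intron 1 (11 and 16). They were most in CTR9 intron 9 (91.3 and 132).

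At the level of single transcripts 10202 of 75934 tested were called (13.4%). Of transcripts annotated as NMD substrates 471 of 8492 were higher (5.55%) and 345 lower (4.06%), against 7.12% and 6.32% over all transcripts. Of 19374 transcripts annotated with a retained intron 1574 were higher and 1886 lower. Among 164 NMD-annotated transcripts of splicing genes 17 were higher and 8 lower. RBM39-236, from a splicing coactivator whose gene was itself higher (1.05 ± 0.06), had 90.8, 94.5 and 89.5 CPM in CHX nuclei and 19.5, 17.6 and 24.6 CPM in DMSO nuclei (log2 fold change 2.15 ± 0.14, adjusted p = 4.83e-06). SRSF6-202, a form of an SR protein gene that was not called as a whole (0.39 ± 0.07), had 259, 248 and 243 CPM in CHX nuclei and 104, 86.4 and 99.9 CPM in DMSO nuclei (1.37 ± 0.14, adjusted p = 6.11e-05). SF3B1-213 (1.82 ± 0.24), CLK4-210 (2.14 ± 0.23) and U2AF1-205 (1.56 ± 0.23) were higher. SRSF5-211 had 8.31, 13.6 and 17.8 CPM in CHX nuclei and 63.9, 77.6 and 68.0 CPM in DMSO nuclei (-2.40 ± 0.36), and TIAL1-213 (-1.04 ± 0.10) was lower as well. The 5 highest NMD-annotated transcripts, GDAP1-211, HNRNPU-222, ODF2-222, ERBIN-229 and BRD2-212, were listed at 0 in all DMSO libraries. HNRNPA2B1-245 was listed at 0 in all CHX libraries. Since reads are assigned to transcripts by estimation, no fold is given for them.

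Few genes of the splicing machinery passed the fold limit. Of 71 core spliceosome genes 2 were higher and 2 lower. The splicing coactivator RBM39 had 2014, 1877 and 2027 CPM in CHX nuclei and 983, 933 and 952 CPM in DMSO nuclei (log2 fold change 1.05 ± 0.06, adjusted p = 1.15e-10). The helicase AQR (1.03 ± 0.09) was the other one higher, and those lower were SNRPA (-1.32 ± 0.08) and DDX23 (-1.14 ± 0.08). Of 13 SR protein genes 1 was lower (SRSF2, -1.05 ± 0.06), of 28 hnRNP and related genes 1 was lower (PCBP1, -1.03 ± 0.10). Of 7 CLK and SRPK kinases 0 were called by edgeR or by DESeq2, with 4 at an unadjusted p under 0.05 and 4 at an adjusted p up to 0.05. Over all 17330 genes 10163 had an adjusted p up to 0.05. CLK3 had 63.8, 66.1 and 68.8 CPM in CHX nuclei and 113, 109.7 and 118 CPM in DMSO nuclei (-0.78 ± 0.09). It averaged 57.8 CPM with CHX and 20.2 CPM with DMSO in the cytoplasm, a difference of -2.30 ± 0.11 (adjusted p = 1.92e-12).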

How the data were processed

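Polyadenylated RNA of 24 nuclear and cytoplasmic libraries was sequenced by the authors, who ran the nf-core RNA-seq pipeline with STAR and salmon and measured intron retention with IRFinder. The submitters' processing notes name fastp 0.23.4 and DESeq2 1.28.0. The deposited table holds expected counts, estimated by salmon for 252894 transcripts of 62754 genes of a reference the authors built from Ensembl (GRCh38), of which 62700 genes matched the GENCODE annotation used for names. The deposited intron files hold coverage depth per intron (a signal), counts of spliced reads and the IR ratio as a fraction, with warnings of the intron caller. Columns of the authors' own comparisons were not used.

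Expected counts were summed per gene and rounded to whole numbers. Genes were filtered by expected counts (filterByExpr, minimum count 10), scaled by TMM and fitted on the 12 nuclear libraries with 1 coefficient per group in edgeR 4.0.16 (R 4.3.3), whose quasi-likelihood test gave the contrast of sgAAVS1 CHX and sgAAVS1 DMSO. Calls were made at 0.05 on the Benjamini-Hochberg scale, with a minimum size of 1 for the log2 fold change in either direction. Standard errors are the log2 fold change over the square root of F. The 12 sgAAVS1 libraries of both fractions gave the difference between fractions, in which levels are relative to each fraction's total. Introns were tested when mean depth plus spliced reads was at least 10 and mean depth of a group at least 1, by the interaction of treatment with read type (rounded depth against the larger of the left and right spliced counts). Scripts were tested on simulated data. Named genes were the 10 highest and 10 lowest called above a mean of 5 CPM, up to 3 called genes per list and direction or the 2 with the smallest p, and the study's 10 genes. For differences they were the 5 highest and 5 lowest with at least 5 CPM in both fractions, for introns the 8 highest and lowest with a depth of at least 5 and the largest of the splicing lists, and for transcripts the 5 highest NMD-annotated with at least 2 CPM and those of splicing genes. Other features named were chosen after their values were seen. Members and lists were chosen with earlier results of these data known. Alternatives were DESeq2 1.42.0, other scalings, filters and samples, a length offset, a replicate block and leaving out each library. No pair of libraries held identical values.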

Additional observations from a re-analysis of the deposited data

Results flagged for a closer look

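In edgeR's interaction of fraction and treatment, the effect of CHX differed between the fractions in 46 of 125 genes of the naming rule. It also differed in 6 others whose difference is discussed. The rule took in genes with the highest and lowest differences, and all 6 others had a called difference. These counts and the split of directions are thus partly set by how genes were chosen. Over all 17055 genes the difference was called in 2626 (15.4%), above 0 in 7.23% and below 0 in 8.17%. Values are the nuclear log2 fold change minus the cytoplasmic one, from 6 nuclear and 6 cytoplasmic sgAAVS1 libraries.

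The nuclear effect was the lower one in 34 of the 52: SNHG12 (-4.37), KREMEN2 (-4.07), TIMM23B-AGAP6 (-3.95), MIR210HG (-3.91), SPTBN1 (-3.64), MCRIP2 (-3.38), SNHG1 (-3.37), PRSS22 (-2.67), PRKAG2-AS1 (-2.63), GADD45A (-2.48), ANKRD13B (-2.41), CLK3 (-2.30), ESRP2 (-2.26), GADD45B (-2.17), GAS5 (-2.13), CYP51A1 (-2.13), HMMR (-1.99), EIF4A2 (-1.86), BOP1 (-1.78), BEGAIN (-1.76), SNHG19 (-1.71), SREBF1 (-1.70), MYBBP1A (-1.65), PPARGC1B (-1.61), DDIT3 (-1.57), AURKB (-1.48), TFAP4 (-1.47), ATF4 (-1.26), CENPF (-1.26), DKC1 (-1.22), IRF9 (-1.21), PTBP2 (-1.18), ZFP36L1 (-1.03) and TIMELESS (-1.03). Among these are 4 snoRNA hosts (SNHG12, SNHG1, GAS5 and SNHG19), the sterol genes CYP51A1 and SREBF1, the ribosome biogenesis genes BOP1, MYBBP1A and DKC1, the mitotic genes HMMR, AURKB and CENPF and the NMD-sensitive mRNAs GADD45A and GADD45B.

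The nuclear effect was the higher one in 18: MIR194-2HG (3.801), MIR600HG (3.23), TNFRSF10D (3.22), ZMAT3 (3.19), LRRC49 (3.02), ADIRF-AS1 (2.85), MAT2A (2.26), NTRK3 (2.02), PIK3C2A (1.95), FBXW7 (1.66), CD68 (1.39), KIF20B (1.36), RC3H2 (1.30), HSPA4L (1.25), JAK2 (1.22), OGA (1.13), CD82 (1.10) and GBP2 (1.04). Of the genes the study follows, PIK3C2A, HSPA4L and JAK2 are in this group.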

How the results depend on the processing

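The count of nuclear genes called kept within 1.5 times of 4375 under every alternative except the one without a fold limit, which called 10163. With 1 library left out it lay between 4191 and 4337, and it was 4310 with the 6 libraries alone, 4502 with DESeq2 and 4288 with the length offset. For the difference between fractions the count was 8148 without a fold limit against 2626, and 2519 to 2625 with 1 library left out. For introns it was 7127 among introns without a caller warning (median -0.13) against 13094, where 52458 and not 121954 introns were tested, and 9374 to 10211 with 1 library left out. For transcripts it was 8084 to 8557 with 1 library left out, and 14562 with DESeq2 against 10202.

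The labels do not say whether same-numbered libraries share a culture. Same-numbered CHX and DMSO nuclei had correlations of their deviations of 0.0067, -0.0263 and -0.1734. For same-numbered nuclei and cytoplasm they were 0.009, 0.099 and 0.0822 with CHX and 0.0498, 0.0351 and 0.1441 with DMSO. With 3 libraries per group these values cannot decide whether the libraries are paired. With the replicate number as a block 4281 genes, 2564 differences, 7400 transcripts and 10938 introns were called.

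Of the named results 121 of 136 gene values, 29 of 31 differences, 45 of 74 introns and 16 of 29 transcripts kept their call in every setting. The length offset took away the calls of GADD45A (0.91), SNHG14 (3.19), RPL12 (-0.49), RPL10A (-0.74), RPL37 (-0.03), RPS21 (-0.43), SRSF2 (-0.91) and FTX (-0.84). Leaving out 1 library took away those of PCBP1 (-0.98 without CHX replicate 3), RSAD2 (1.84 without CHX replicate 2), IRF9 (-0.99 without CHX replicate 2), RPL10A (-0.97 without CHX replicate 3) and RPA3 (0.92 without DMSO replicate 2), and TIMELESS fell just short without DMSO replicate 3, whereas JAK2 (1.09 without DMSO replicate 1) and NBAS (1.01 without CHX replicate 1) gained a call. With library totals the differences of JAK2 and OGA (0.91) missed the limit. Exactly spliced reads reversed the overlapping long intron of GADD45A (0.30, chr1:67685539-67686349) and introns 3 and 4 of CLK4 (1.68 and 1.97), and CLK1 intron 4 lay between -0.01 (without CHX replicate 2) and 0.10 with 1 library left out. The causes were not tested. At these depths genes listed at 0 with DMSO have no firm fold change, and estimated transcript counts listed at 0 may reflect how reads were shared among transcripts.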
